A study of Mus musculus with 6 samples.

Results

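The nuclear-encoded part of the mitochondrial respiratory chain was examined in the liver of aged WT and *Sirt7* KO mice. Members were the protein-coding genes of GENCODE M21 (GRCm38) whose symbol starts with Nduf, Uqcr, Atp5 or Cox4 to Cox8, together with *Sdha*, *Sdhb*, *Sdhc*, *Sdhd*, *Cyc1* and *Cycs*. This rule gave 96 of the 54115 genes with a transcript in the data, and it used symbols and no measured value. The members comprised 44 genes of complex I, 4 of complex II, 9 of complex III, 20 of complex IV, 18 of complex V and the gene of cytochrome c. The genes taken for complex I included 8 assembly factors (*Ndufaf1* to *Ndufaf8*), which help to build the complex and are not part of it, and *Cox7a2l* and *Atp5s* are likewise no subunits of the finished complexes. The RNA-seq covered 3 WT and 3 *Sirt7* KO male mice on a C57BL/6J background, all 24 months old and all fasted for 16 h before the liver was taken. The *Sirt7* KO mice came from a whole-body line and were bred as littermates of the WT mice. Bulk RNA of the whole liver was amplified from 1 ng with a SMART-seq HT kit, so fewer cells of a type and less RNA per cell cannot be told apart.

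The respiratory chain passes electrons from NADH and succinate to oxygen and uses the energy to pump protons across the inner mitochondrial membrane. Complex I oxidizes NADH, complex II oxidizes succinate, and both hand electrons through coenzyme Q to complex III, from which the small protein cytochrome c carries them to complex IV. Complex V, the ATP synthase, lets the protons flow back and makes ATP. A few subunits are made from the mitochondrial genome, and all others are transcribed in the nucleus, where factors such as NRF1, GABP, YY1 and ERRα are known to drive many of these genes. SIRT7 is a nuclear deacylase, and GABPβ1, a subunit of GABP, is among its known substrates. The liver depends on this machinery during fasting, when it burns fatty acids and makes glucose and ketone bodies.

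The libraries held 9994860 to 13424776 reads on transcripts. *Sirt7*, the targeted gene, stood at 55.0, 45.4 and 47.2 CPM (counts scaled to the effective size of each library) in the WT livers and at 28.5, 41.7 and 40.7 CPM in the *Sirt7* KO livers. Its full-length isoform held 429, 381 and 408 reads in WT livers and 124, 135 and 77.5 reads in *Sirt7* KO livers, so reads of the gene remained in the KO libraries while all KO livers were below all WT livers. The summed level of 8 hepatocyte markers was 58820 to 61100 CPM in WT livers and 59660 to 70180 CPM in *Sirt7* KO livers. Of the 4 skeletal muscle markers, *Ckm* and *Acta1* were at 0 in all mice and the list summed to at most 0.0961 CPM, and the 3 brown fat markers summed to 1.77 to 5.98 CPM in WT livers and 0.481 to 12.9 CPM in *Sirt7* KO livers, with *Ucp1*, the defining gene of brown fat, at 0 in all mice. The ranges of the macrophage, endothelial, stellate, leukocyte and erythroid lists overlapped between genotypes. *Sirt7* KO mouse 1 differed from the other *Sirt7* KO mice in several groups of genes, and values with and without it are given where a count rests on it.

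Of the 96 members, 88 passed the filter on low counts and were tested among 12524 genes. Levels were compared between genes as TPM, which is scaled to the length of each transcript. The highest complex I members, *Ndufb9* and *Ndufa1*, reached mean TPM of 654 and 633 over the 6 mice. *Uqcrq*, which encodes a small subunit of complex III, had the highest mean level of all members at 2021 TPM, followed by its complex III partner *Uqcr11* at 1228 TPM. In complex IV, *Cox6c* had 1156 TPM and *Cox4i1* 1124 TPM, and in complex V, *Atp5b*, which encodes the catalytic β subunit, had 957 TPM and *Atp5j* 827 TPM. Short transcripts receive small effective lengths in the TPM calculation, which raises their TPM. As CPM per kilobase of full transcript length, the mean level of *Uqcrq* was 1002, that of *Atp5b* 957, that of *Cox4i1* 892 and that of *Cox6c* 709. *Uqcrq* kept the top place on both scales, and *Atp5b* moved to the place below it. Mobile cytochrome c (*Cycs*) was far lower at 45.6 TPM. This level leaves out the reads given to *Gm10053*, a gene that shares part of its sequence and held more reads than *Cycs* in every mouse. The least abundant tested members were *Ndufaf5* at 2.96 TPM, *Cox7a1* at 7.85 TPM and *Atp5s* at 8.61 TPM.

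Several complex IV subunits, the c subunit of complex V and NDUFA4 are encoded by more than 1 gene, and for the complex IV subunits and NDUFA4 the liver used mainly 1 form of each. *Cox4i1* was at 789.8, 731.3 and 591.6 CPM in WT livers and at 552.4, 644.0 and 624.2 CPM in *Sirt7* KO livers, whereas *Cox4i2*, known as the form of lung and of low oxygen, had at most 3 reads in any mouse. *Cox6a2*, a form of heart and skeletal muscle, had likewise at most 3 reads, while *Cox6a1* was at 270.0 to 345.4 CPM. For both subunits the widespread form thus gave nearly all reads. *Cox8a* was at 271.8 to 338.8 CPM, with *Cox8b* at 2 to 15 reads and *Cox8c* at 0 reads in all mice, which allows up to 3 reads per library. *Cox7b2*, known from testis, was also at 0 reads, while *Cox7b* was at 115.7 to 153.3 CPM. The COX8 and COX7B proteins are small subunits that stabilize the complex, and each came from its widespread gene. *Cox7a2* was at 191.9 to 230.5 CPM and exceeded *Cox7a1*, the form of heart and skeletal muscle, which was at 0.635 to 2.44 CPM. *Ndufa4l2*, a relative of *Ndufa4* that is induced by low oxygen, had 15, 8 and 8 reads in WT livers and 9, 9 and 9 reads in *Sirt7* KO livers. The c subunit of complex V came mainly from 2 genes, *Atp5g3* and *Atp5g1*, with mean TPM of 756 and 682 against 60.4 for *Atp5g2*. The level of *Atp5g2* leaves out the reads given to *Gm10175*, a gene that shares part of its sequence. *Gm10175* held more reads than *Atp5g2* in every mouse but *Sirt7* KO mouse 1. The alternative forms of the complex IV subunits and of *Ndufa4* were thus far below the main forms in both genotypes.

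**Figure D1:**
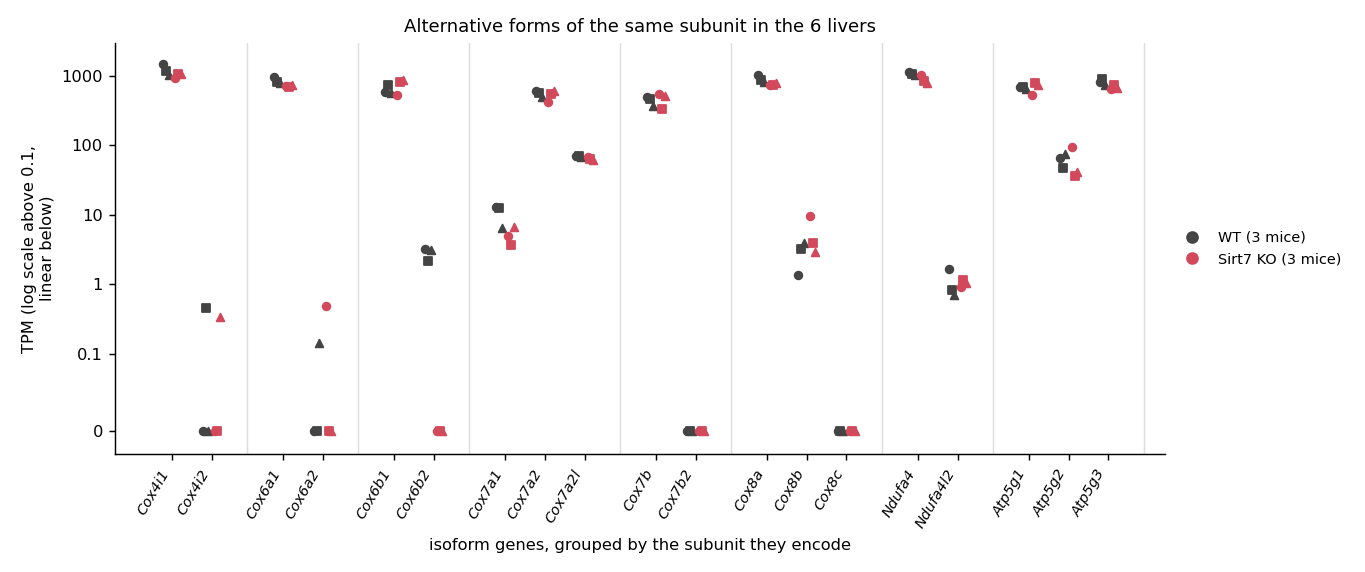
TPM of each alternative gene for the same subunit, on an axis that is logarithmic above 0.1 and linear below, with 1 point per mouse (circle, square and triangle for mouse 1, 2 and 3; grey for 3 WT and red for 3 *Sirt7* KO mice). The main liver forms lie far above the others in every mouse, *Cox7b2* and *Cox8c* lie at 0, and *Cox6b2* lies at 0 in the 3 *Sirt7* KO mice only. *Cox7a2l*, which is no subunit, is drawn beside its relatives.

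The 8 members that were not tested were *Cox4i2*, *Cox6a2*, *Cox6b2*, *Cox7b2*, *Cox8b*, *Cox8c*, *Ndufa4l2* and a second gene entry of *Atp5o*. That entry held 0 reads, and 94.0% of its words of 31 bases also occur in other genes, so reads of the main *Atp5o* could not be fully told from reads of this entry. Among these genes only *Cox6b2*, known as the testis form of a complex IV subunit, separated the genotypes. It had 12, 9 and 14 reads in the WT livers and 0 reads in each of the 3 *Sirt7* KO mice, with no shared word of 31 bases with another gene. Its mean in WT livers was 0.954 ± 0.121 CPM (SD, n = 3), and with the KO libraries set at a floor of 3 counts each the level was at least 3.25-fold lower in *Sirt7* KO livers. When no filter on low counts was applied, it had an adjusted p of 0.00516 by the quasi-likelihood test of edgeR, as 1 of 633 genes called among 27881. This call rested on that setting: where *Cox6b2* passed the filter after 1 mouse was left out, its adjusted p was 0.0663 to 0.377 in edgeR, and DESeq2 gave it an unadjusted p of 0.000362 and no adjusted p. The main form *Cox6b1* was at 220.2, 254.5 and 221.2 CPM in WT livers and at 239.6, 246.7 and 230.7 CPM in *Sirt7* KO livers, and these ranges overlapped.

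The comparison of the genotypes asked whether the members differed in liver between *Sirt7* KO and WT mice. None of the 88 tested members passed an adjusted p of 0.05 with a fold change over 1.5 in edgeR, and the smallest adjusted p of a member was 0.286. Only 1 of all 12524 tested genes passed that rule (0.00798%), so the count of 0 is no result about the members. DESeq2 also called 0 members. At an unadjusted p under 0.05 it gave *Ndufaf6* and *Ndufaf7*, which were higher, and *Cox6b2*, which was lower and not among the 88. With offsets for transcript length, DESeq2 instead gave *Cox6b2* and *Atp5s* at that threshold, both lower. In edgeR, 3 of the 88 members were at an unadjusted p under 0.05, a smaller share than the 11.3% of all tested genes. All 3 were higher in *Sirt7* KO livers, again a smaller share than the 6.54% of all tested genes. No tested member was lower at that threshold, while 4.78% of all tested genes were. The 3 genes were *Ndufaf5*, *Ndufaf6* and *Ndufaf7*, all assembly factors of complex I, and of the 78 tested members that are subunits or cytochrome c none reached it. In direction, 28 members had positive and 60 negative log2 fold changes. Their median log2 fold change was -0.089, a fold change of 0.94, against -0.0061 for all tested genes. Values of opposite sign offset each other in these medians, which thus do not give the size of the change of a single member.

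Many members were measured tightly enough to bound a change. The 95% interval of the fold change lay within 1.5-fold in both directions for 66 of the 88 members, or 75%, beside 24.5% of all tested genes, and within 2-fold for 84. The median standard error of the log2 fold change was 0.152 for members and 0.252 for all tested genes. The values of all *Sirt7* KO mice lay above those of all WT mice for 3 members, the same 3 assembly factors, beside 8.76% of all tested genes. They lay below for 8 members, *Ndufa6*, *Ndufa12*, *Ndufb9*, *Ndufs7*, *Cox6a1*, *Cox7a1*, *Cox8a* and *Atp5h*, beside 8.06% of all tested genes. *Ndufa12* and *Atp5h*, like *Ndufaf1* and other genes outside the naming rule, were chosen after their values were seen. Exact permutation over 3 against 3 mice cannot go below p = 0.1, which is what each of these 11 genes gave.

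**Figure D2:**
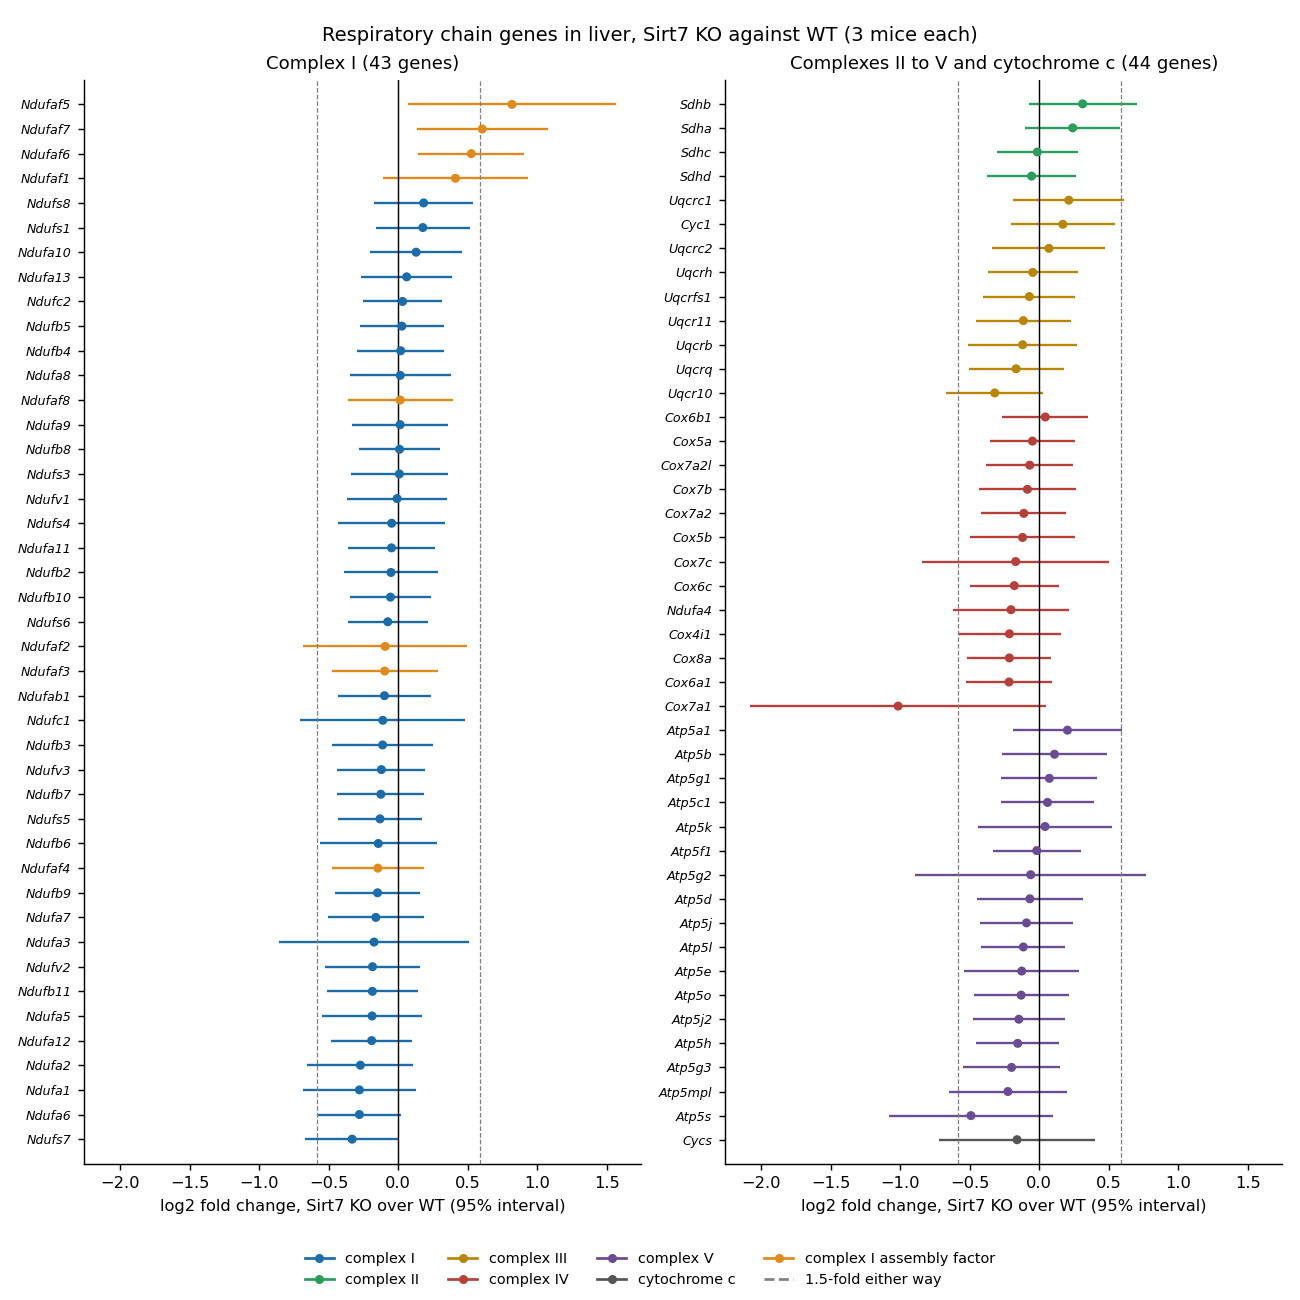
Log2 fold change of 87 of the 88 tested members (x axis, *Sirt7* KO over WT, 3 mice each, edgeR) with 95% intervals, grouped by complex (left, complex I with its assembly factors in orange; right, complexes II to V and cytochrome c). The intervals of *Ndufaf5*, *Ndufaf6* and *Ndufaf7* lie above 0, and all others include 0, most of them between the dashed lines at 1.5-fold.

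In complex I, all 44 members were tested, with a median log2 fold change of -0.065. The assembly factors and the subunits were described apart. *Ndufaf6*, whose product is needed early in the building of the complex, was at 18.5, 16.3 and 19.0 CPM in WT livers and at 21.7, 30.0 and 25.9 CPM in *Sirt7* KO livers. All KO livers were above all WT livers, with a log2 fold change of 0.53 (SE 0.17, unadjusted p = 0.0124 and adjusted p = 0.286 in edgeR). *Ndufaf7*, which encodes a methyltransferase that acts in the building of complex I, was at 9.28, 10.8 and 12.1 CPM in WT livers and at 14.97, 19.99 and 14.04 CPM in *Sirt7* KO livers, a log2 fold change of 0.60 (SE 0.21, adjusted p = 0.324 in edgeR). *Ndufaf5*, which encodes a hydroxylase that modifies the core subunit NDUFS7, was rare, with 33, 19 and 35 reads in WT livers and 44, 38 and 47 reads in *Sirt7* KO livers. In CPM these were 2.79, 1.72 and 2.58 against 4.02, 4.02 and 4.52, a log2 fold change of 0.82 (SE 0.33, adjusted p = 0.389 in edgeR). None of the 3 passed the adjusted threshold. When transcript length offsets were used in DESeq2, or when *Sirt7* KO mouse 2 was left out in edgeR, 0 of the 3 were at an unadjusted p under 0.05.

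The other 5 assembly factors did not separate the genotypes. *Ndufaf1* was at 17.9, 27.8 and 30.9 CPM in WT livers and at 28.8, 41.8 and 31.4 CPM in *Sirt7* KO livers, where the lowest KO mouse was below the highest WT mouse. *Ndufaf2*, *Ndufaf3*, *Ndufaf4* and *Ndufaf8* had log2 fold changes of -0.093, -0.097, -0.15 and 0.015. The assembly factors of the respiratory chain outside the rule, 38 tested genes such as *Surf1* and *Sco1*, had a median of -0.017. At an unadjusted p under 0.05 in edgeR, 1 was higher (*Sco2*, 0.42), beside 6.54% of all tested genes. Likewise 1 was lower (*Coa7*, -0.54), beside 4.78%. All KO values lay above all WT values for 2 of the 38 and below for 3, beside 8.76% and 8.06% of all tested genes. *Coa7* was at 31.9, 42.0 and 36.1 CPM in WT livers and at 22.6, 26.3 and 26.7 CPM in *Sirt7* KO livers, without overlap, and its adjusted p was 0.243 in edgeR.

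The 7 core subunits of complex I, which bind the flavin and the iron-sulfur clusters, had a median log2 fold change of 0.0086, with 4 higher and 3 lower. *Ndufs7*, the core subunit next to the site where coenzyme Q is reduced, was at 219.9, 233.4 and 190.4 CPM in WT livers and at 152.5, 182.2 and 177.1 CPM in *Sirt7* KO livers. These values did not overlap, and the log2 fold change of -0.33 (SE 0.15) had an unadjusted p of 0.0523 and an adjusted p of 0.448 in edgeR. The remaining core subunits lay between -0.18 (*Ndufv2*) and 0.18 (*Ndufs8*). The 29 accessory subunits, which surround the core, had a median of -0.11, with 21 lower and 8 higher. *Ndufa6* was at 211.2, 202.3 and 192.0 CPM in WT livers and at 158.0, 167.6 and 173.6 CPM in *Sirt7* KO livers, with no overlap and a log2 fold change of -0.28 (SE 0.13). *Ndufb9* did not overlap either, with 396.2, 383.9 and 347.1 CPM in WT livers against 332.5, 340.4 and 344.5 CPM in *Sirt7* KO livers. *Ndufa1* overlapped, since *Sirt7* KO mouse 1 stood at 146.5 CPM and the other *Sirt7* KO mice at 102.4 and 102.2 CPM, with WT mice at 129.2, 141.1 and 155.6 CPM.

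Complex II, succinate dehydrogenase, has no subunit made in mitochondria, and its 4 genes had a median log2 fold change of 0.11. *Sdhb*, the iron-sulfur subunit, was at 306.4, 348.4 and 365.2 CPM in WT livers and at 337.6, 475.4 and 453.3 CPM in *Sirt7* KO livers, a log2 fold change of 0.31 (SE 0.17, adjusted p = 0.553 in edgeR). *Sdha*, the flavoprotein, was at 398.3, 439.5 and 437.9 CPM against 435.8, 527.5 and 543.8 CPM, with a log2 fold change of 0.24 (SE 0.15). In both genes *Sirt7* KO mouse 1 lay inside the WT range while the other *Sirt7* KO mice lay above it. The membrane anchors *Sdhc* and *Sdhd* had log2 fold changes of -0.014 and -0.056, with 95% intervals of -0.30 to 0.28 and -0.38 to 0.27.

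Complex III had a median log2 fold change of -0.072 over 9 genes, with 3 higher and 6 lower. *Uqcrc1*, a large core protein of the complex, was at 516.4, 570.4 and 550.8 CPM in WT livers and at 493.0, 709.2 and 695.4 CPM in *Sirt7* KO livers, a log2 fold change of 0.21 (SE 0.18). *Cyc1*, the heme protein that passes electrons to cytochrome c, was at 283.7, 298.8 and 288.6 CPM against 259.4, 355.3 and 364.9 CPM. For both, *Sirt7* KO mouse 1 was below all WT mice and the other *Sirt7* KO mice were above them. The small subunit gene *Uqcr10* was at 179.3, 180.3 and 141.8 CPM in WT livers and at 146.4, 122.0 and 133.1 CPM in *Sirt7* KO livers, a log2 fold change of -0.32 (SE 0.15, adjusted p = 0.482 in edgeR). The abundant *Uqcrq* and *Uqcr11* had log2 fold changes of -0.17 and -0.11. Mobile cytochrome c, *Cycs*, was at 63.3, 61.1 and 69.7 CPM in WT livers and at 84.6, 45.3 and 43.7 CPM in *Sirt7* KO livers, so KO values lay on both sides of the WT range. Of the words of 31 bases of *Cycs*, 29.2% also occur in other genes, and its look-alike *Gm10053* held more reads than *Cycs* itself (1461, 1544 and 1815 in WT livers, 1597, 1006 and 815 in *Sirt7* KO livers). With those reads added, the log2 fold change of *Cycs* was -0.23 (SE 0.22), against -0.16 (SE 0.25) for the gene alone.

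Complex IV had a median log2 fold change of -0.17 over 13 tested genes, 12 of which were lower in *Sirt7* KO livers. Without *Sirt7* KO mouse 3 this median was -0.086. All of these genes but *Cox7a2l* had short transcripts, with mean lengths of 393 to 735 bases. The median of all tested genes was -0.18 under 500 bases, -0.11 at 500 to 700 bases and -0.039 at 700 to 1000 bases. *Cox6a1* was at 345.4, 330.5 and 301.7 CPM in WT livers and at 291.6, 270.0 and 279.3 CPM in *Sirt7* KO livers, and *Cox8a* at 338.8, 329.4 and 299.5 CPM against 282.1, 271.8 and 279.9 CPM. Neither gene overlapped between the genotypes, with log2 fold changes of -0.22 (SE 0.14) and -0.22 (SE 0.13). The largest negative value of all members belonged to *Cox7a1*, which had 25, 27 and 21 reads in WT livers and 11, 6 and 14 reads in *Sirt7* KO livers, a log2 fold change of -1.02 (SE 0.47, unadjusted p = 0.0593 and adjusted p = 0.464 in edgeR). *Cox6c* and *Ndufa4*, now counted with complex IV, had log2 fold changes of -0.18 and -0.20. *Cox6b1* was the member with a positive value, 0.043 (95% interval -0.26 to 0.35). *Cox7a2l*, which encodes a factor that joins complexes III and IV, was at 60.9 to 73.6 CPM in the 6 mice with a log2 fold change of -0.069.

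Complex V had a median log2 fold change of -0.092 over 17 tested genes, with 5 higher and 12 lower. Among the higher genes were *Atp5a1* and *Atp5b*. *Atp5a1* was at 820.6, 946.1 and 871.0 CPM in WT livers and at 816.5, 1144 and 1075 CPM in *Sirt7* KO livers (log2 fold change 0.20, SE 0.17). *Atp5b*, the gene of the catalytic β subunit, had a log2 fold change of 0.11. *Atp5h*, a subunit of the stator stalk, was at 312.2, 316.6 and 291.4 CPM against 268.4, 288.6 and 269.5 CPM without overlap, a log2 fold change of -0.16 (SE 0.13). *Atp5s*, which encodes an ATP synthase associated factor, was at 8.44, 10.3 and 12.2 CPM in WT livers and at 9.68, 6.24 and 6.06 CPM in *Sirt7* KO livers, a log2 fold change of -0.49 (SE 0.26). In DESeq2 with transcript length offsets its log2 fold change was -0.71 (unadjusted p = 0.0460, adjusted p = 0.464). *Atp5mpl*, a small membrane subunit, was at 99.2, 102.0 and 105.9 CPM against 113.7, 75.8 and 73.1 CPM, with *Sirt7* KO mouse 1 above and the other *Sirt7* KO mice below the WT range. The c subunit genes *Atp5g1*, *Atp5g2* and *Atp5g3* had log2 fold changes of 0.072, -0.062 and -0.20. *Atp5g2* shares 40.2% of its words with other genes, and with the reads of *Gm10175* added its log2 fold change was -0.13 (SE 0.13).

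**Figure D3:**
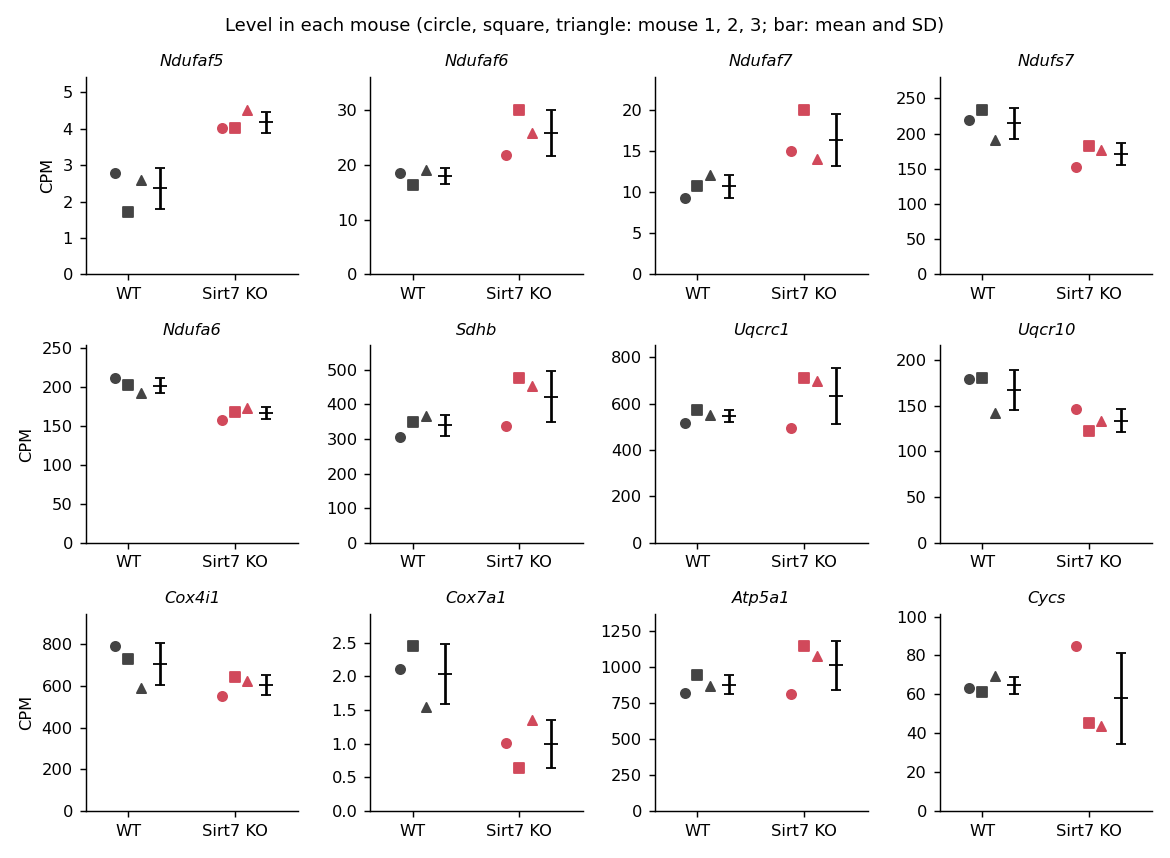
CPM (y axes, from 0) of 12 members in each of 3 WT (grey) and 3 *Sirt7* KO (red) mice, with the mean and SD of each genotype in black. *Ndufaf5*, *Ndufaf6* and *Ndufaf7* are higher and *Ndufs7*, *Ndufa6* and *Cox7a1* lower in all *Sirt7* KO mice, while the circle of *Sirt7* KO mouse 1 is apart from the other *Sirt7* KO mice in *Sdhb*, *Uqcrc1*, *Atp5a1* and *Cycs*.

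The mean over the genes of each complex, taken in log2 CPM relative to the mean of the 6 mice, showed the same layout. The complex IV mean was 0.12, 0.14 and 0.028 in WT livers and 0.042, -0.17 and -0.16 in *Sirt7* KO livers, so that *Sirt7* KO mouse 1 lay within the WT range. The assembly factors of complex I were at -0.15, -0.17 and -0.045 in WT livers and at 0.089, 0.19 and 0.078 in *Sirt7* KO livers, without overlap. Complex II was at -0.14, -0.00028 and -0.033 against -0.080, 0.16 and 0.096. The 13 subunits made from the mitochondrial genome spread further: they took 2.17%, 2.30% and 2.51% of the reads in WT livers and 2.98%, 1.83% and 1.57% in *Sirt7* KO livers. The nuclear-encoded members took 1.98%, 1.83% and 1.75% of the reads in WT livers and 1.66%, 1.72% and 1.66% in *Sirt7* KO livers. These are shares of the total count, and on the TMM scale used for CPM the nuclear-encoded shares overlapped, at 1.77%, 1.86% and 1.72% in WT livers against 1.68%, 1.81% and 1.75% in *Sirt7* KO livers. The mitochondrial share had its highest and its lowest values in *Sirt7* KO livers on both scales.

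**Figure D4:**
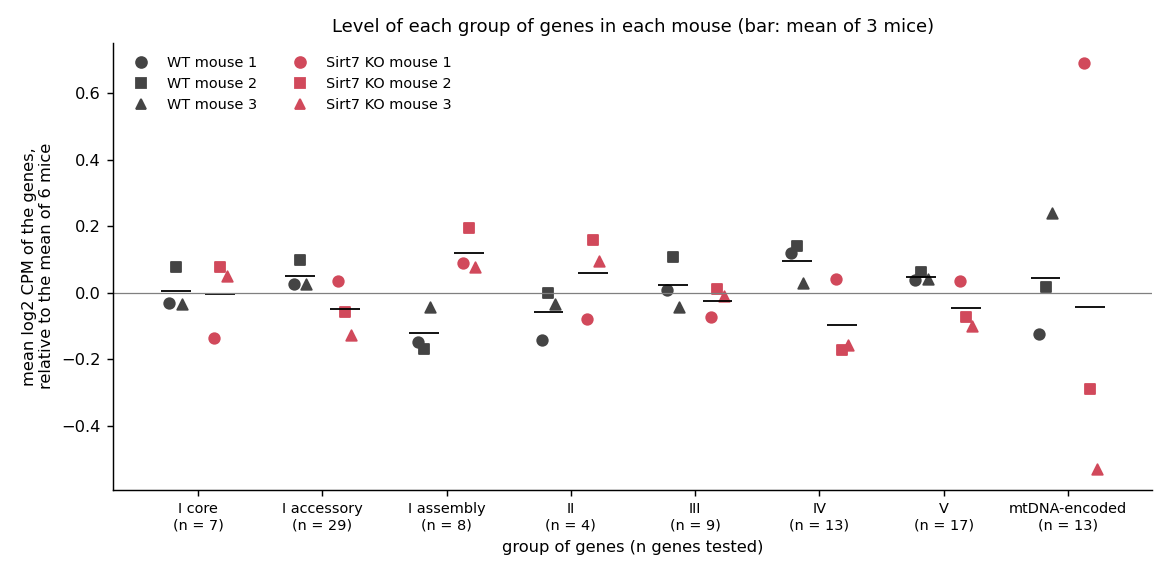
Mean log2 CPM of the genes of each group relative to the mean of the 6 mice (y axis) for each mouse, with bars at the mean of 3 WT (grey) and 3 *Sirt7* KO (red) mice and the number of tested genes under each group. *Sirt7* KO mouse 1 lies close to the WT values for complexes II, IV and V, and at 0.69 for the subunits encoded by mitochondrial DNA (mtDNA), where the other *Sirt7* KO mice lie at -0.29 and -0.53.

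Leaving out *Sirt7* KO mouse 1 changed the counts. At an unadjusted p under 0.05 in edgeR, 21 of 89 tested members were then counted in place of 3, with 7 higher (8.97% of all tested genes were higher) and 14 lower (8.12% of all tested genes were lower). The member added to the tested set was *Cox6b2*, which passed the filter in this fit and was among the lower genes. On the 88 members of the main fit, 7 were higher and 13 lower. The smallest adjusted p of a member was 0.0598, that of *Ndufa3*, so 0 passed the adjusted threshold. The higher genes were *Ndufaf6*, *Ndufaf7*, *Sdha*, *Sdhb*, *Cyc1*, *Uqcrc1* and *Atp5a1*, and among the lower genes were *Ndufa3*, *Cox7c*, *Cycs*, *Ndufc1* and *Atp5mpl*. *Ndufa3* was at 76.5, 78.3 and 90.6 CPM in WT livers, at 51.1 and 51.0 CPM in *Sirt7* KO livers 2 and 3, and at 115.5 CPM in *Sirt7* KO mouse 1. *Cox7c* was at 114.0, 92.3 and 108.7 CPM in WT livers, at 69.5 and 63.6 CPM in these *Sirt7* KO mice and at 146.7 CPM in *Sirt7* KO mouse 1. In these genes the libraries of the same genotype thus lay on opposite sides of the WT range. Without that mouse the values of 55 of the 89 members did not overlap between genotypes, 19 above (18.3% of all tested genes) and 36 below (18.2% of all tested genes). Of the 36 below, 33 had transcripts under 1000 bases, as did 5 of the 19 above, and these shares of all tested genes were not taken by length.

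The fold changes of the members ran with the length of their transcripts, a property that the rule did not use. Over the 88 members, Spearman's correlation between the log2 fold change and the mean transcript length was 0.54, and over all 12524 tested genes it was 0.0041. The members ran from 367 to 2855 bases with a median of 660, while all tested genes had a median of 2065 bases. Both correlations thus cover unlike ranges of length and are not set against each other. They are descriptions across genes, which share the 6 libraries and are not independent. The 65 members under 1000 bases had a median log2 fold change of -0.12, beside -0.079 for the 1737 tested genes of that length, and the 23 members of 1000 bases or more had 0.069, beside 0.0053 for 10787 genes. In finer classes the medians were -0.13 for 17 members under 500 bases (-0.18 for all tested genes of that length), -0.12 for 30 members of 500 to 700 bases (-0.11), -0.065 for 18 members of 700 to 1000 bases (-0.039), 0.060 for 16 members of 1000 to 1500 bases (-0.0049) and 0.18 for 7 longer members (0.0085). The short classes thus lay below 0 in members and in all tested genes alike, whereas the long classes lay above 0 in members and close to 0 in all tested genes. Complex and role went together with length. The 4 complex II genes were 1089 to 2855 bases long, while most accessory subunits of complex I and nearly all tested complex IV genes were under 1000 bases. Differences between these groups were thus not separated from length.

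The length classes also set *Sirt7* KO mouse 1 apart. The 17 members under 500 bases had mean log2 levels, relative to the 6 mice, of 0.12, 0.11 and 0.067 in WT livers and of 0.19, -0.25 and -0.23 in *Sirt7* KO livers. The 7 members of 1500 bases or more were at -0.11, -0.025 and -0.013 in WT livers and at -0.19, 0.17 and 0.16 in *Sirt7* KO livers. Hence *Sirt7* KO mice 2 and 3 lay below the WT mice in the short members and above them in the long members, and *Sirt7* KO mouse 1 did the reverse. All 285 tested genes under 500 bases had means of 0.11, 0.11 and 0.050 in WT livers and of 0.019, -0.13 and -0.17 in *Sirt7* KO livers, so that over these genes *Sirt7* KO mouse 1 lay between the WT mice and the other *Sirt7* KO mice. Library preparation, RNA quality and genotype were not separated here, and their part in the length pattern was not tested. Without *Sirt7* KO mouse 1, 11 of 65 members under 1000 bases (16.9%) were lower at an unadjusted p under 0.05, beside 13.1% of all tested genes of that length, and 5 of 23 longer members (21.7%) were higher, beside 9.55%.

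**Figure D5:**
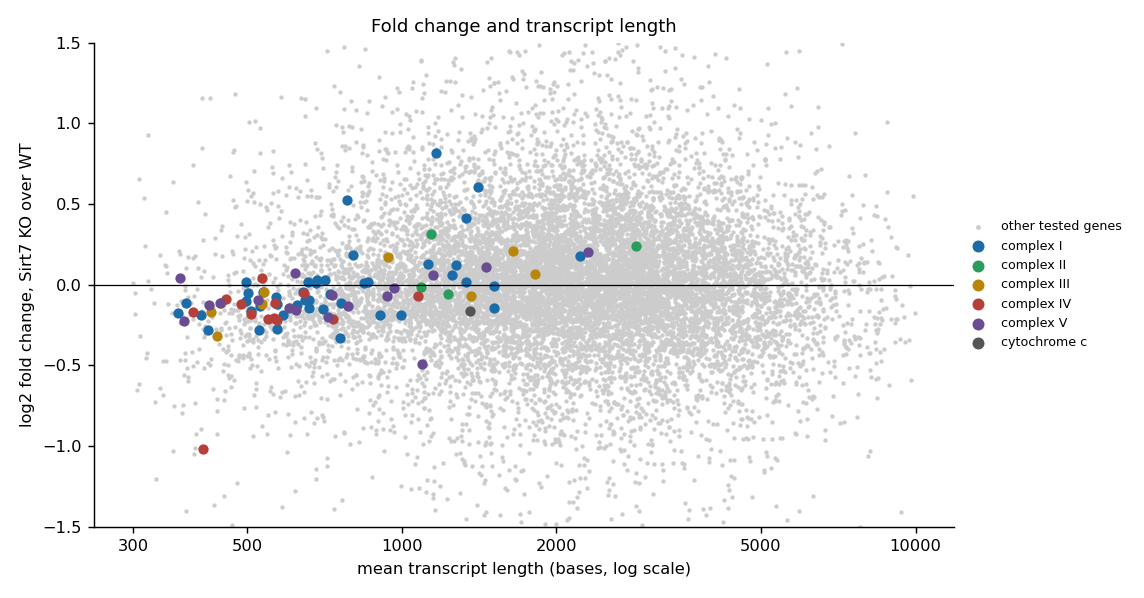
Log2 fold change (y axis, *Sirt7* KO over WT) against mean transcript length (x axis, log scale) for the 88 tested members, colored by complex, over the other tested genes in grey, without the grey points beyond the axes. Members under 1000 bases lie mostly below 0 (median -0.12) and longer members mostly above (median 0.069).

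Other genes of mitochondrial energy metabolism were compared as lists. Among 13 genes of the citric acid cycle, which feeds the chain, 0 were at an unadjusted p under 0.05 in edgeR, and the median log2 fold change was 0.10. Among 10 genes of coenzyme Q synthesis the median was 0.12 and *Coq8a*, which encodes an atypical kinase of that pathway, was higher, at 345.6, 325.8 and 309.7 CPM in WT livers and 389.3, 853.4 and 722.2 CPM in *Sirt7* KO livers (log2 fold change 1.00, SE 0.26, adjusted p = 0.206 in edgeR). The 10 genes of the electron transfer flavoprotein and of carriers had a median of -0.11, and the 13 subunits encoded in mitochondria one of -0.024, each with 0 genes at an unadjusted p under 0.05 in edgeR. Thus *Coq8a* was the gene of these lists at that threshold, which 11.3% of all tested genes reached, and it did not pass the adjusted one.

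Of 13 regulators of nuclear-encoded mitochondrial genes, 9 were lower and 4 higher, beside 6345 and 6179 of all 12524 tested genes. All KO values lay below all WT values for 2 of the 13, *Yy1* and *Ppargc1b*, beside 8.06% of all tested genes. At an unadjusted p under 0.05 in edgeR 1 was lower, beside 4.78%. *Yy1* was at 19.8, 18.1 and 24.9 CPM in WT livers and at 12.2, 11.6 and 17.4 CPM in *Sirt7* KO livers, without overlap, with a log2 fold change of -0.61 (SE 0.21, unadjusted p = 0.0190 and adjusted p = 0.334 in edgeR). *Esrra*, the gene of ERRα, was at 18.1, 19.6 and 23.5 CPM in WT livers and at 2.28, 12.9 and 18.2 CPM in *Sirt7* KO livers, the lowest value being that of *Sirt7* KO mouse 1. *Ppargc1b* was at 10.63, 10.32 and 13.36 CPM in WT livers and at 4.565, 10.26 and 7.883 CPM in *Sirt7* KO livers. Its log2 fold change was -0.60 (SE 0.30, adjusted p = 0.494 in edgeR). The GABP genes *Gabpa* and *Gabpb1* had log2 fold changes of 0.11 (SE 0.19) and 0.38 (SE 0.33), *Nrf1* of -0.096 and *Ppargc1a* of -0.39 (SE 0.34). Every regulator had an adjusted p above 0.3 in edgeR.

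The promoters of the members were read from RefSeq (GRCm38.p6) for 75 of 95 symbols, 80 promoters in all, each with 250 bases before and 50 after the start of the gene. Short words of 4 factors were sought on both strands, and no matches of different words overlapped in these promoters. The word CCGGAAG, bound by ETS factors such as GABP, was in 18 of the 80 promoters (22.5%), beside 8.86% of all 32851 promoters and 17.6% of the promoters of tested genes. The word CGCATGCG of NRF1 was in 12 promoters (15%), beside 1.87% and 3.70%, the word AAGATGGCG of YY1 was in 8 (10%), beside 1.40% and 3.06%, and the word TCAAGGTCA of ERRα was in 2 (2.5%), beside 0.423% and 0.294%. The tested members with the GABP word had a median log2 fold change of -0.074 (18 genes) and those without it one of -0.090 (54 genes). For the NRF1 word these medians were -0.077 (12 genes) and -0.090 (60 genes), and for the YY1 word -0.083 (8 genes) and -0.090 (64 genes). For the ERRα word they were -0.13 (2 genes) and -0.089 (70 genes). For the GABP, NRF1 and YY1 words, members with and without the word thus had nearly the same median. Of the assembly factors at an unadjusted p under 0.05 in edgeR, *Ndufaf5* had the NRF1 word and *Ndufaf7* none of the words. *Ndufaf6* was not among the genes with a word, which also holds for any symbol without a promoter entry.

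The 200 bases before the start are shown 5′ to 3′ on the strand of the gene for 4 members that show these words or their absence, with the words in capitals. *Ndufaf1* and *Uqcr11* carry the GABP word (chr2:119662835-119663034 and chr10:80406831-80407030, both on the minus strand), *Cycs* the NRF1 word (chr6:50566570-50566769, minus strand) and *Cox7a1*, the member with the largest negative value, none of the words (chr7:30183944-30184143, plus strand).
Ndufaf1: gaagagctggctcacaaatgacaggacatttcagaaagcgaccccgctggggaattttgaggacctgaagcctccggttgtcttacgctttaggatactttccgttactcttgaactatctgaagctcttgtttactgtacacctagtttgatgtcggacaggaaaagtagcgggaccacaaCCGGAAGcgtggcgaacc
Uqcr11: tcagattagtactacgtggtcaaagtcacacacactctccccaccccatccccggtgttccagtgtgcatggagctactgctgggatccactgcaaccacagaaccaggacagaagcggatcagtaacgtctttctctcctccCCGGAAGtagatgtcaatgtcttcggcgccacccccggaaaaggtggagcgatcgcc
Cycs: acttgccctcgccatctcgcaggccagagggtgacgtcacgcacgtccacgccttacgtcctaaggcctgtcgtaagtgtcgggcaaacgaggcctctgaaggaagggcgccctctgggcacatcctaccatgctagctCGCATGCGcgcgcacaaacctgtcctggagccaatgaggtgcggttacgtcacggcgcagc
Cox7a1: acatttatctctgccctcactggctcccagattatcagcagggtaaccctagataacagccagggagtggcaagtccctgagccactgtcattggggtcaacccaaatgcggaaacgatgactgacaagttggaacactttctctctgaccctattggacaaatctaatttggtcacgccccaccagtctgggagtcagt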

How the data were processed

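RNA-seq of 3 WT and 3 *Sirt7* KO livers was used. Per the paper's methods, the authors trimmed reads with Trim Galore 0.6.5 and quantified them with Salmon 1.2.1 on the GRCm38 transcriptome. They deposited, for each mouse and transcript, the estimated count of reads, without normalization and with fractions. The authors' TPM, also deposited, are scaled to effective length and to a total per mouse. Effective length was the length minus 250 bases for long transcripts and was identical in all mice. The annotation release is not given in the sources used here.

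Gene totals of the estimated counts followed GENCODE M21 and were rounded. Of 140992 transcripts, 1201 (0.303% to 0.492% of reads) had no gene in it and were not used. Genes were tested with the quasi-likelihood test of edgeR 4.0.16 (R 4.3.3) with TMM normalization and filterByExpr (minimum count 10). Benjamini-Hochberg adjustment ran over all 12524 tested genes, and a call needed an adjusted p under 0.05 and a fold change over 1.5. CPM are scaled by TMM. Intervals are 95% intervals of the fit. DESeq2 1.42.0, other normalizations, no filter, a replicate block and leaving out each mouse were alternatives. Permutation tests were exact and two-sided on log2(CPM + 0.5). Mean transcript length was weighted by TPM. No molecular identifiers are named, so depth covers counting error only.

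Named were, in each complex, the 2 tested members with the highest mean TPM and the 2 with the largest log2 fold changes in each direction. *Sirt7*, the succinate dehydrogenase genes, *Cyc1*, *Cycs*, the sets of alternative forms, members at an unadjusted p under 0.05 and untested members were also named, and other genes were chosen after their values were seen. The members and lists were chosen with earlier results of these data known. Mice of a genotype differed beyond sampling noise (chi-square per gene 15.8 or more), so each counted as 1 sample. A tested complex I gene is counted in every total and is not reported by name here.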

Additional observations from a re-analysis of the deposited data

How the results depend on the processing

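With 3 mice a genotype, changes of members under about 1.5-fold were not resolved for each gene. DESeq2, RLE normalization and the replicate block called 0 members, as did leaving out each mouse. With no filter on low counts 1 member was called (*Cox6b2*), and an unadjusted p with a fold change over 1.5 gave 2. Replicate numbers did not pair the mice (correlations of deviations 0.0648, 0.0730 and -0.0470), and with the replicate block 2 members had an unadjusted p under 0.05 against 3. Total count scaling shifted all tested genes by a median of -0.11. It gave 6 members at an unadjusted p under 0.05 (2 higher and 4 lower), 13 members higher and 75 lower, 20 that did not overlap, and medians of -0.19 over the members and of -0.17, 0.0052, -0.18, -0.27 and -0.20 for complexes I to V. Without assembly factors and other non-subunits 0 members had an unadjusted p under 0.05. Leaving out each mouse gave 1 (without *Sirt7* KO mouse 2) to 21 (without *Sirt7* KO mouse 1) members at that threshold, and 13 (without *Sirt7* KO mouse 3) to 55 (without *Sirt7* KO mouse 1) that did not overlap, with 23 without WT mouse 3. It gave medians of -0.13 to -0.037 over the members, -0.088 to -0.026 for complex I, 0.079 to 0.16 for complex II, -0.12 to -0.017 for complex III, -0.23 to -0.086 for complex IV and -0.17 to -0.075 for complex V. The ends nearest 0 for complexes III and IV came without *Sirt7* KO mouse 3, where complex V was at -0.083. Fewer mice overlap less by construction. Shares of all tested genes at an unadjusted p under 0.05 or without overlap were taken only for the main fit and without *Sirt7* KO mouse 1. The counts of the other refits thus have no background beside them and are no result about the members. Of 432 refitted log2 fold changes of 36 named genes, 13 in 9 genes changed sign and 0 crossed the adjusted threshold.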
